A study of Mus musculus with 12 samples.

Results

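Sox2, Sox9, S100b, Aldoc, Dkk3, Hes1, Gfra2, Nes and Cd9 are 9 genes by which stem cells and folliculostellate cells of the anterior pituitary are commonly recognised. They were taken by gene symbol from a table of 55304 genes, and all 9 passed the filter on low values that left 24736 genes for testing. Folliculostellate cells are the non-endocrine, star-shaped cells that line the follicles of the gland and join into a network through gap junctions, and S100b is the protein by which they are classically stained. Cells of this compartment that carry SOX2 and SOX9 can divide and give rise to the hormone-producing lineages, and NOTCH signalling with its effector HES1 is known for holding progenitors in their undifferentiated state. A hormone-producing cell such as the corticotroph is not known for these markers.

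The libraries were made from Pomc-eGFP mice, male and on a C57Bl6/J background, that entered the experiment at 8 weeks of age and carry a green fluorescent protein driven by the Pomc promoter in every group. The question was how far the transcripts of the corticotroph, the cell that makes POMC and releases ACTH, return after a long course of glucocorticoid. Control mice (group A) drank water without drug, mice of group B drank dexamethasone (DEX), a synthetic glucocorticoid, at 2.5 µg/ml during 4 weeks, and groups C and D had the same 4 weeks of DEX before plain water for 7 and 28 days. According to the methods, groups B and C first drank plain water for 4 and 3 weeks, and control mice drank it for all 8 weeks. All mice were collected at the end of these 8 weeks, so age at harvest was matched while age at the start of DEX differed. Each group held 3 libraries (n = 3), each from eGFP-positive single cells sorted from a pool of mouse anterior pituitaries after the posterior and intermediate lobes were dissected away. Each pool came from 3 mice according to the methods, though the study elsewhere allows fewer, and a pool number names a library and not an animal.

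Libraries held 7719894 to 12848078 reads on genes, and values are normalised counts, that is, CPM on a library size that the authors scaled, where 1 read was worth 0.0787 to 0.127. A gene with 3 reads or fewer in a library was taken as at the floor there, which covers counting error only, and a count of 0 allows up to 0.236 to 0.382 normalised counts depending on the library. The sorted cell was visible in every library through Pomc, which took 0.454% to about 20% of the reads, while Gh, the growth hormone gene of somatotrophs, took 8.20% to 22.9% in libraries labelled as corticotrophs. Control pool 3 and the third pool 1 week after withdrawal stood apart by the heat shock gene Hspa1a, at 2724 and 2534 normalised counts against 72.6 to 767 in the other 10 libraries. The latter also had the lowest Tbx19, the transcription factor that defines corticotrophs, at 39.5 against 94.4 to 1490 in those 10, so results that rest on this pair are given with and without it. Whether transcripts came from fewer or more cells of a type, or from less or more RNA per cell, cannot be told apart in pooled cells.

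Dkk3 and Aldoc had their highest values in the 3 pools taken 4 weeks after withdrawal, above every other library of the series. Cd9 was lowest in the 3 DEX pools. The share of all tested genes with either order was not counted. In single comparisons the 4 week pools lay above control for 6.77% of all tested genes, above DEX for 9.8% and above 1 week for 5.19%. Sox2, Hes1 and Nes differed as much between pools of 1 group as between groups, and S100b and Gfra2 lay at or near the floor in most libraries. Apart from these last, all 7 genes had their highest group mean 4 weeks after withdrawal. Across the 4 groups none of the 9 passed limma's F test at an adjusted p under 0.05, where 0.315% of all tested genes passed, and 3 of the 9 (Dkk3, Aldoc and Cd9) had an unadjusted p under 0.05, where 9.21% of all tested genes did. The number that passed depended on the tool, with 1 (Dkk3) by edgeR's quasi-likelihood test, where 0.639% of genes passed, 1 (Dkk3) by its likelihood ratio test (4.22%), 2 (Dkk3 and Aldoc) by DESeq2 (3.68%) and 3 (with Cd9) by limma with array weights (4.32%). Without control pool 3 and the third pool at 1 week, limma called 2, Aldoc with an adjusted p of 0.0328 and Dkk3 with one of 0.0393.

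**Figure D1:**
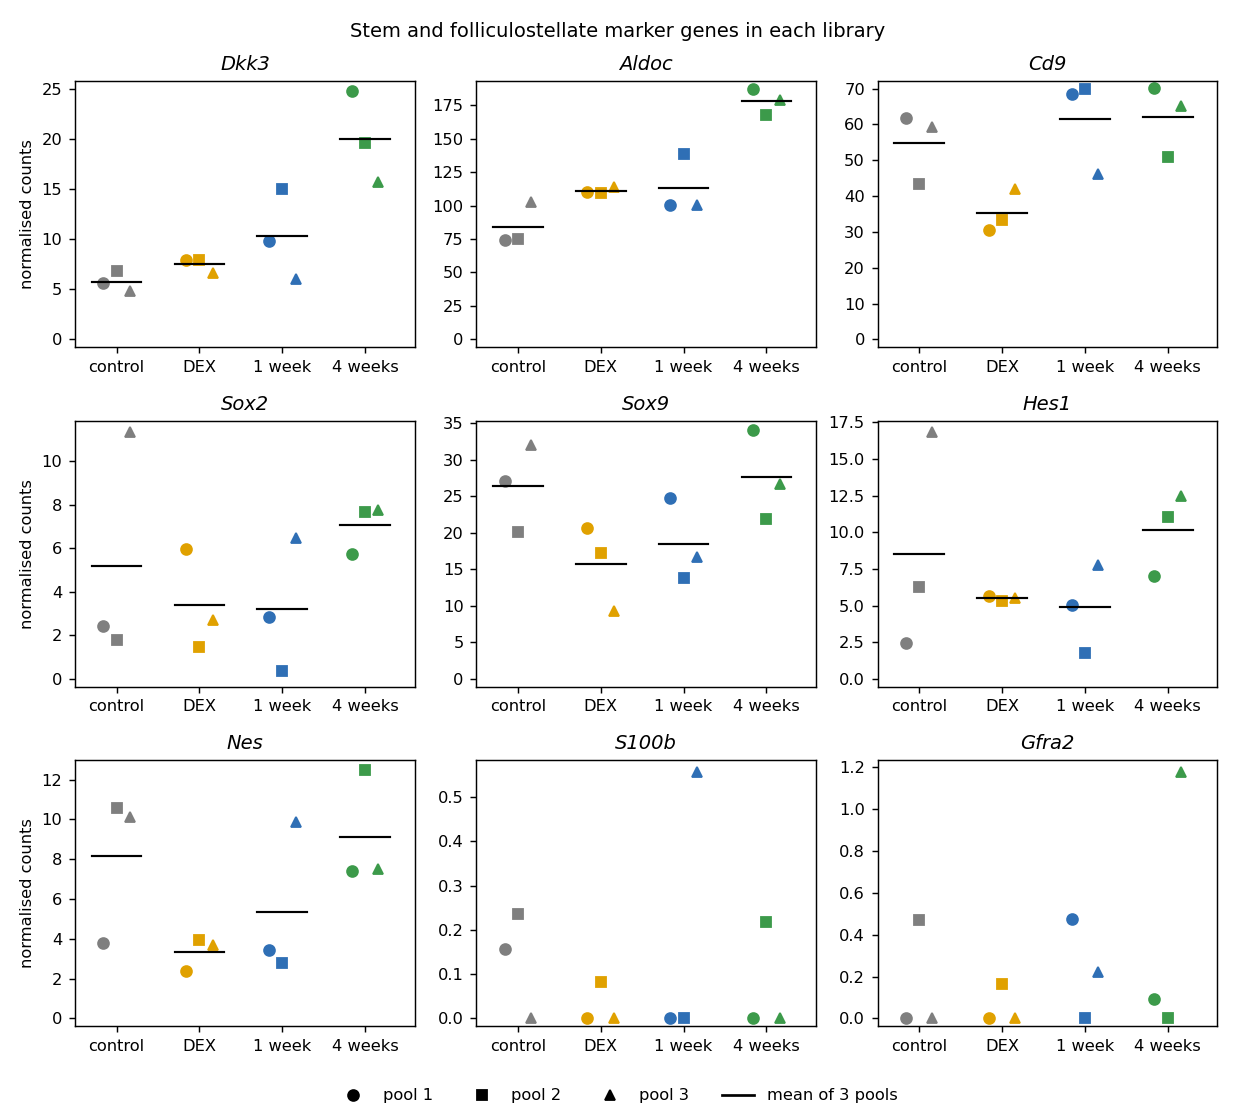
Normalised counts (y axis, linear, a separate scale in each panel) of the 9 genes in each library of the control, DEX, 1 week and 4 weeks groups (x axis), with 1 symbol for each pool number and a line at the mean of 3 pools, left out for S100b and Gfra2. Dkk3 and Aldoc at 4 weeks sit between 15.7 and 24.8 and between 168 and 188, above all other libraries.

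Because Aldoc and Cd9 were the most abundant of the 9 and Nes gave one of the larger differences under DEX, the bases upstream of these genes are shown. They were read from RefSeq promoter windows of 300 bases on GRCm38.p6, on the strand of the gene and up to the base before the gene's start in GENCODE, at chr11:78322823-78322967 (Aldoc, plus strand), chr6:125494792-125495010 (Cd9, minus strand) and chr3:87970843-87971077 (Nes, plus strand). Capitals mark letters of the motifs searched on both strands.
Aldoc: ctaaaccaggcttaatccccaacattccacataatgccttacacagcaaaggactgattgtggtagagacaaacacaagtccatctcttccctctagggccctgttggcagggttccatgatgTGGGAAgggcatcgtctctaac
Cd9: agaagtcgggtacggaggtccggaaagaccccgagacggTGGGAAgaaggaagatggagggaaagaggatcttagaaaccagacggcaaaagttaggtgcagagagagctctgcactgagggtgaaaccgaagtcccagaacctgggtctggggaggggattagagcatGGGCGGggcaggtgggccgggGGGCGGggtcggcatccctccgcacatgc
Nes: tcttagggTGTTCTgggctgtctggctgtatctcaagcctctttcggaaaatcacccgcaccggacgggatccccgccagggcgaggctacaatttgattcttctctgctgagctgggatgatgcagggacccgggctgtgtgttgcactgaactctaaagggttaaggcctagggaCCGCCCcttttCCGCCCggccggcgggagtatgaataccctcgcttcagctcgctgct

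The motifs were AGAACA, the half-site of the glucocorticoid receptor, AACAAT of SOX proteins, TGGGAA of RBPJ, the DNA-binding partner of NOTCH, and GGGCGG of SP1, and they do not overlap one another in these stretches. In 32851 windows of all genes they were present in 19%, 10.7%, 25.6% and 35.7%. Of the 9 genes, 5 had a window (Sox2, Cd9, Nes, S100b and Aldoc, the last with 2 start sites, of which the more upstream is shown). The glucocorticoid receptor half-site was found in the window of Nes, written there as TGTTCT from the other strand. The RBPJ letters were found in the windows of Cd9, S100b and Aldoc, the SP1 letters in those of Sox2, Nes, Cd9 and Aldoc, and the SOX letters in none of the 5. These are matches of letters and not sites, and with such shares in all windows the matches carry no more than a description of the sequence. Sox9, Hes1, Gfra2 and Dkk3 had no window.

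Among the transcription factors, Sox2 (chromosome 3, 34650405 to 34652461, a gene of a single exon inside the span of the non-coding Sox2ot on the same strand) maintains the undifferentiated state of stem cells. It had 2.44, 1.77 and 11.3 normalised counts in the control pools, 5.96, 1.47 and 2.69 in the DEX pools, 2.85, 0.382 and 6.45 in the pools 1 week after withdrawal and 5.73, 7.66 and 7.76 in the pools 4 weeks after withdrawal. Control pool 3 was the highest of all 12 libraries and the second pool at 1 week, with 3 reads, the lowest, so that the groups overlapped in every comparison. The values rested on 3 to 104 reads, and Sox2ot itself had 1.02 to 3.15 normalised counts. The difference of the 4 week pools from control was 0.91 on the log2(value + 0.1) scale (95% interval −0.88 to 2.69, limma adjusted p = 0.907), which also allows no difference or a several-fold one. It ran from 0.40 without control pool 2 to 1.70 without control pool 3. Against DEX, the 4 week difference was 1.25 with an interval from −0.54 to 3.03 (limma adjusted p = 0.731). For DEX against control the sign depended on the libraries, at −0.34 in all 12, 0.46 without control pool 3 and 0.12 without DEX pool 2.

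Hes1 (chromosome 16, 30064384 to 30067796), a repressor that NOTCH switches on, followed Sox2 from library to library. Its values were 2.44, 6.24 and 16.9 normalised counts in control, 5.63, 5.31 and 5.49 in DEX, 5.04, 1.78 and 7.78 at 1 week and 7.02, 11.1 and 12.5 at 4 weeks. The same 2 libraries as for Sox2 held the highest and the lowest value, the 3 DEX pools were close together, and all 3 pools at 4 weeks lay above them. Over the 12 libraries Pearson's r between Sox2 and Hes1 was 0.85 on the log2 scale, given as a description because both genes share library, depth and any mixture of cells. The 4 week difference from DEX was 0.84 (95% interval −0.44 to 2.13, limma adjusted p = 0.753). The difference between DEX and control was −0.22 in all libraries and 0.48 without control pool 3, so its sign too turned with that library.

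Sox9 (chromosome 11, 112782224 to 112787760), which marks progenitors together with Sox2 and persists in cells that begin to differentiate, had 83 to 369 reads and was the better measured of the SOX genes. It had 27.1, 20.03 and 32.0 normalised counts in control, 20.6, 17.3 and 9.31 in DEX, 24.7, 13.8 and 16.7 at 1 week and 34.1, 21.9 and 26.7 at 4 weeks. The lowest library was DEX pool 3, the control and DEX pools overlapped by the narrow margin of control pool 2, and every 4 week pool lay above every DEX pool. The mean was 26.4 ± 6.002 in control (SD, n = 3) and 15.7 ± 5.81 in DEX, a difference of −0.79 (SE 0.336, limma adjusted p = 0.686). Without DEX pool 3 this difference was −0.45, and without DEX pool 1 it was −1.02. At 4 weeks the mean was 27.6 ± 6.14, which was 0.86 above DEX (SE 0.336, limma adjusted p = 0.359) and 0.07 from control with an interval of −0.65 to 0.78.

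Nes (chromosome 3, 87971078 to 87980451) encodes nestin, an intermediate filament of neural and other progenitors that is also made by young endothelial cells and pericytes. Normalised counts were 3.78, 10.6 and 10.1 in control, 2.40, 3.92 and 3.70 in DEX, 3.42, 2.80 and 9.89 at 1 week and 7.39, 12.5 and 7.49 at 4 weeks. The DEX pools were all low, 1 control pool and 2 pools at 1 week were as low, and every 4 week pool was above every DEX pool. The DEX difference from control was −1.16 (SE 0.512, limma adjusted p = 0.702), and the 4 week difference from DEX was 1.41 (SE 0.512, limma adjusted p = 0.297). Neither passed, although the unadjusted p of each was under 0.05. Kdr, the endothelial VEGF receptor, differed in the same direction as Nes, at 0.673 to 2.698 in DEX and 10.6 to 25.6 at 4 weeks, and its part in the values of Nes was not tested.

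**Figure D2:**
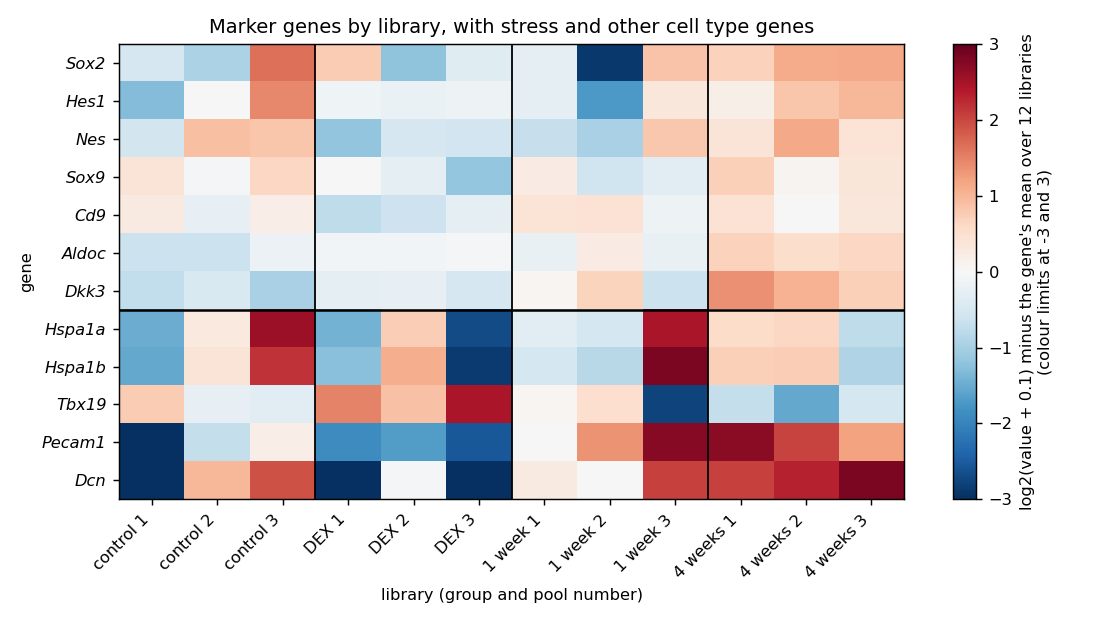
Log2(value + 0.1) of 12 genes (rows) in 12 libraries (columns, by group and pool number) as the difference from each gene's mean, with colours limited at −3 and 3 and the line below Dkk3 setting apart 5 genes that are not stem or folliculostellate markers. Sox2 and Hes1 were highest in control 3 and lowest in 1 week 2, while Aldoc and Dkk3 were highest in the 3 libraries at 4 weeks.

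At the cell surface, Cd9 (chromosome 6, 125460266 to 125494791), a tetraspanin that organises integrins and other partners in the membrane, was lower in every DEX pool than in every control pool. Its values were 61.8, 43.4 and 59.3 normalised counts in control, 30.4, 33.3 and 42.1 in DEX, 68.5, 70.0 and 46.2 at 1 week and 70.1, 50.9 and 65.2 at 4 weeks. The 3 DEX pools lay below the 6 pools after withdrawal as well. The mean of 35.2 ± 6.07 in DEX compared with 54.8 ± 10.0 in control (SD, n = 3 each), and the difference of −0.63 (SE 0.254) did not pass (limma adjusted p = 0.652). The differences from DEX were 0.79 at 1 week (95% interval 0.25 to 1.33, limma adjusted p = 0.206) and 0.82 at 4 weeks (0.28 to 1.36, limma adjusted p = 0.181). By DESeq2 the latter 2 passed, with adjusted p of 0.0472 and 0.0435, whereas DEX against control did not (0.320). Cd9 is made by many cell types, and the tetraspanin Cd63 of lysosomes and exosomes lay likewise below control in all 3 DEX pools, at 197 to 272 against 354 to 455 normalised counts (limma F test adjusted p = 0.148).

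Gfra2 (chromosome 14, 70890120 to 70979838), the receptor subunit that binds neurturin, gave 27 reads in all. It had no read in 6 libraries, 1 to 5 reads in 5 libraries and 13 reads, or 1.17 normalised counts, in pool 3 at 4 weeks. Only 3 libraries held more than 3 reads, 1 each of the control, 1 week and 4 week groups, so no difference between groups was detectable at this depth and none is given as a fold. Its ligand gene Nrtn was present at 7.65 to 35.6 normalised counts. Of the 8 other genes of GDNF family ligands and receptors, 7 were tested and none passed the F test, with the smallest adjusted p of 0.201 for Gfra4.

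S100b (chromosome 10, 76253853 to 76261159) encodes the calcium-binding protein that defines folliculostellate cells, and its last part lies opposite Dip2a on the other strand. It gave 12 reads in all 12 libraries together, with none in 7 libraries, 1 or 2 reads in 4 libraries and 5 reads in the third pool at 1 week. The classical folliculostellate marker was thus at or under the floor in every library but that one. Per kilobase of exon, the median over libraries was 0 for S100b, 0.0131 for Gfra2, 0.882 for Nes, 2.09 for Sox2, 2.35 for Dkk3, 2.91 for Hes1, 5.14 for Sox9, 26.9 for Cd9 and 33.7 for Aldoc, against 37083 for Pomc and 147630 for Gh. The name folliculostellate is therefore not carried by the defining marker in these libraries, while SOX2 and SOX9, which define the stem cells, were represented at low levels. Cd9 and Aldoc, the 2 genes with by far the highest levels, are also made by many other cell types.

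Aldoc (chromosome 11, 78322968 to 78327781) encodes aldolase C, the glycolytic enzyme of brain that is enriched in astrocytes. It had 74.5, 75.0 and 103 normalised counts in control, 109.8, 109.8 and 114 in DEX, 100.5, 139 and 100.2 at 1 week and 188, 168 and 179 at 4 weeks. The DEX pools lay just above the highest control pool, the 1 week pools overlapped both, and the 4 week pools were above all 9 others. Group means (SD, n = 3) were 84.1 ± 16.2 in control, 111 ± 2.18 under DEX, 113 ± 22.2 after 1 week off DEX and 178 ± 9.74 after 4 weeks. The 4 week difference from control was 1.10 (SE 0.224, 95% interval 0.62 to 1.57), a ratio of 2.14, with a limma adjusted p of 0.394 and a two-sided exact permutation p of 0.1, the smallest that 3 pools against 3 allow. It was 0.68 from DEX (SE 0.224, limma adjusted p = 0.221) and 0.67 from 1 week (limma adjusted p = 0.713). By DESeq2 the 4 week difference from control passed with an adjusted p of 0.00226 and that from DEX with one of 0.0407. The more common muscle isozyme gene Aldoa, at 867 to 1059 normalised counts at 4 weeks and 891 to 1157 in control, overlapped between these groups.

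Dkk3 (chromosome 7, 112116017 to 112159057), a secreted glycoprotein of the Dickkopf family that is named after WNT antagonists, had the largest difference between 4 weeks and control of the 9. Its normalised counts were 5.66, 6.83 and 4.78 in control, 7.87, 7.93 and 6.62 in DEX, 9.79, 15.0 and 6.003 at 1 week and 24.8, 19.6 and 15.7 at 4 weeks, from 44 to 268 reads. All 3 pools at 4 weeks were above the other 9, an order whose share over all tested genes was not counted. Of the 3 pools at 1 week, 2 were above all control and DEX pools. The 4 week difference from control was 1.77 (SE 0.351, 95% interval 1.02 to 2.52), a ratio of 3.41, with a limma adjusted p of 0.394 and an exact permutation p of 0.1. Against DEX it was 1.39 (SE 0.351, limma adjusted p = 0.0823) and against 1 week 1.03 (limma adjusted p = 0.718). The same difference from control had an adjusted p of 0.00225 by DESeq2 and 0.424 by edgeR's quasi-likelihood test, and leaving out any single library gave 1.60 to 1.93. Aldoc and Dkk3 ran together over the libraries (Pearson's r = 0.87, n = 12, a description), with the first 3 ranks of both in the 4 week pools.

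**Figure D3:**
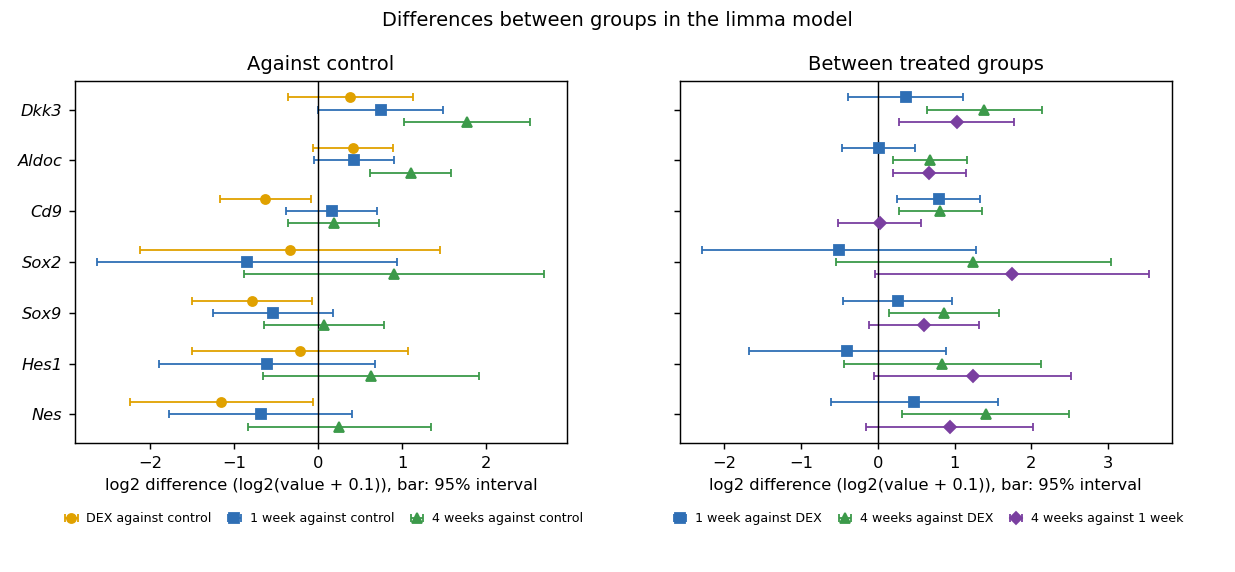
Differences between groups (x axis, on the log2(value + 0.1) scale) for the 7 genes other than S100b and Gfra2 (y axis), against control on the left and between treated groups on the right, with bars for the 95% interval of limma's model. The intervals of Dkk3 and Aldoc for 4 weeks against control run from 1.02 to 2.52 and from 0.62 to 1.57, clear of 0, and those of Sox2 cross 0 in all 6 comparisons. Intervals are for single genes and are not adjusted for the number of genes tested. The limma adjusted p of Dkk3 and of Aldoc for 4 weeks against control was 0.394.

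Taken comparison by comparison, under DEX 5 of the 7 genes other than S100b and Gfra2 had a negative and 2 a positive difference from control, with a median of −0.34 beside −0.02 over all tested genes. S100b and Gfra2, at or near the floor, are left out of these counts of direction. None of the 9 passed limma's adjusted threshold (0.121% of all tested genes did), and 3 of the 9 had an unadjusted p under 0.05 (6.8% of all). Cd9 lay below control in all pools (6.23% of genes did) and Aldoc above (6.61%). One week after withdrawal none passed against control, where limma called 0% of all genes, no gene of the 9 had an unadjusted p under 0.05 (3.79% of all did) and none was apart from control in all pools, where 3.47% of genes lay above and 2.61% below. Cd9 was the gene that differed from DEX in all pools at 1 week, where 6.97% of genes lay above. It was the one with an unadjusted p under 0.05 (10.8% of all), limma called none of the 9 (0.433% of all), and DESeq2 (3.02%) and array weights (2.29%) called Cd9.

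At 4 weeks after withdrawal all 7 genes other than S100b and Gfra2 had a positive difference from control with a median of 0.62 beside 0 over all tested genes. Those of Hes1 and Nes turned negative without control pool 1, and that of Sox9 without control pool 2 or without the first pool at 4 weeks. Dkk3 and Aldoc lay above control in all pools, as 6.77% of genes did, and both had an unadjusted p under 0.05 (6.35% of all), while limma and edgeR's quasi-likelihood test called 0% of all genes. The likelihood ratio test called Dkk3 (0.376% of all). DESeq2 (0.342% of the 17528 genes to which it gave an adjusted p) and limma with array weights (0.752% of all) called both. Against DEX the differences of the 7 were again positive with a median of 0.86, and Sox9, Hes1, Cd9, Nes, Aldoc and Dkk3 lay above DEX in all pools, as 9.8% of genes did. There 5 of the 9 had an unadjusted p under 0.05 (9.94% of all) and none passed the adjusted threshold (0.873% of all, and 0.865% by the quasi-likelihood test, which called none of the 9 either). There the likelihood ratio test called Dkk3 (2.68% of all), DESeq2 called Cd9, Aldoc and Dkk3 (3.21%), and array weights called these 3 with Nes (5.26%). These comparisons share the DEX or control pools, so they are not separate evidence. Dkk3 and Aldoc were also above all 1 week pools, as 5.19% of genes were, where limma called 0% of all genes and 2 of the 9 had an unadjusted p under 0.05 (5.47% of all).

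A wider list of 27 other genes of stem and folliculostellate cells, among them transcription factors, keratins, retinoic acid enzymes and secreted proteins, gave a similar picture without any call. Of the 26 tested, none passed the F test. At 4 weeks 20 had a positive difference from control, with a median of 0.69 beside 0 over all genes, and Fstl1, Cyp2f2, Krt8, Krt18, Aldh1a1, Aldh1a2 and Gja1 lay above control in all pools, 7 of 26 where 6.77% of all genes did. Under DEX 12 were positive and 14 negative, with a median of −0.16.

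The smallest p in that list belonged to Aldh1a2, the enzyme that makes retinoic acid, and to Gja1, which encodes connexin 43 of the gap junctions between folliculostellate cells. Aldh1a2 had 33.8, 38.9 and 56.4 normalised counts in control, 44.4, 39.8 and 51.9 in DEX, 50.2, 46.1 and 51.6 at 1 week and 108, 83.3 and 83.5 at 4 weeks (limma F test adjusted p = 0.115). Gja1 had 3.78, 3.65 and 4.13 in control, 4.72, 3.76 and 1.23 in DEX, 4.75, 5.35 and 5.45 at 1 week and 15.6, 14.4 and 7.76 at 4 weeks. Both thus shared with Dkk3 and Aldoc the order in which the 4 week pools lay above all 9 others. How common this order is over all tested genes was not counted. The Gja1 difference from DEX was 2.06 with a limma adjusted p of 0.0501. Cyp2f2, a cytochrome gene known from folliculostellate cells, differed from Aldh1a2 and Gja1 in its DEX values. It had 113, 88.6 and 231 in control, 270.3, 261 and 267 in DEX, 111, 230.1 and 168 at 1 week and 259, 346 and 383 at 4 weeks, and was higher in every DEX pool than in every control pool. Of the 26 tested genes of this list, 3 lay above control in every DEX pool (6.61% of all tested genes did) and 2 below (6.23%). The 3 were Cyp2f2, Fstl1 and Gfap, the last on 3, 7 and 2 reads in the DEX pools. The marker Aldoc lay above control under DEX as well. Vim, the filament vimentin, was low in the DEX pools at 5.63 to 10.1 against 15.3 to 30.2 in control, 13.9 to 54.8 at 1 week and 11.1 to 17.3 at 4 weeks, where its difference from control was −0.48 (limma F test adjusted p = 0.202).

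**Figure D4:**
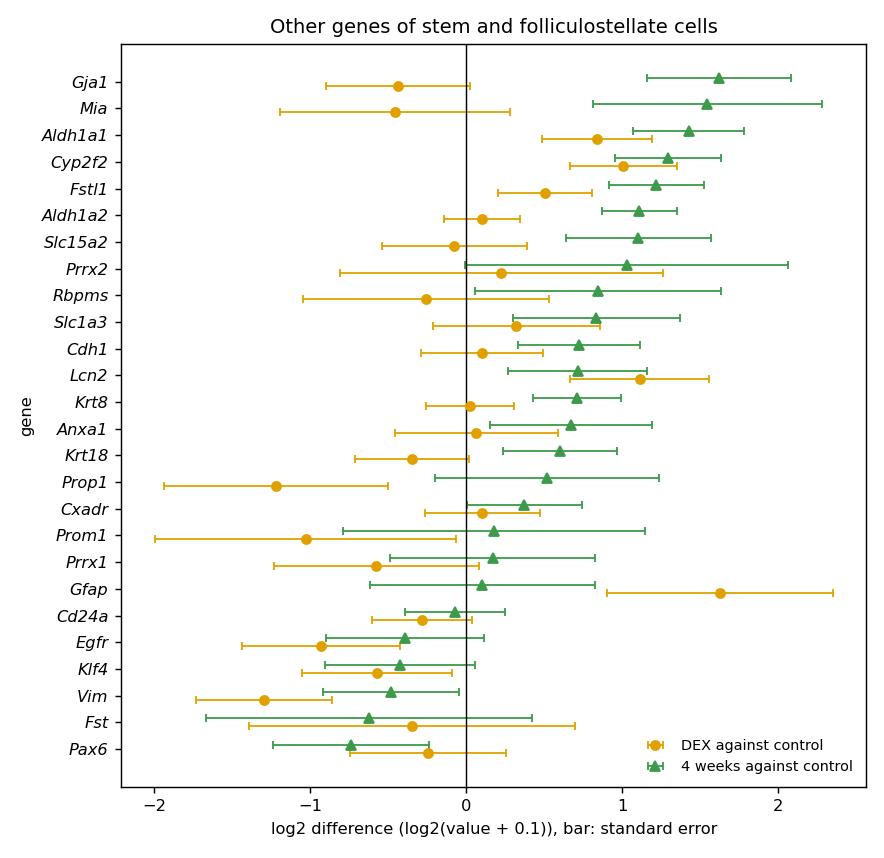
Difference from control (x axis, on the log2(value + 0.1) scale, bars for the standard error) of the 26 tested genes of the wider list (y axis, sorted by the 4 week difference) under DEX (circles) and 4 weeks after withdrawal (triangles). Triangles lie to the right of 0 for 20 genes and circles for 12.

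In the NOTCH pathway, the signal above Hes1, 30 genes were tested and none passed the F test. The receptor Notch2 had the smallest p and was high under DEX, at 31.7 to 49.2 normalised counts against 14.7 to 26.5 in control and 17.0 to 20.7 at 4 weeks (limma F test adjusted p = 0.176), while the ligand Dll4 ran from 0.248 to 1.31 in DEX and 2.26 to 4.90 at 4 weeks (adjusted p = 0.413). Of 14 other Sox genes 11 were tested, none passed, and Sox18, a factor of endothelial cells, had the smallest p (limma F test adjusted p = 0.485).

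Of 10 other secreted WNT antagonists 6 were tested and none passed the F test. At 4 weeks 4 of them lay above DEX in all pools (9.8% of all tested genes did), and 2 passed limma's adjusted threshold (0.873%). The other 2 of these 4 were at or near the floor. Sfrp2 had 0, 1 and 0 reads in DEX and 1, 2 and 2 at 4 weeks. Dkkl1 had 0, 0 and 0 reads in DEX and 6, 1 and 3 at 4 weeks. Sfrp5 had 1.16, 1.96 and 1.01 normalised counts in DEX and 6.19, 9.63 and 6.23 at 4 weeks, a difference of 2.36 (SE 0.512, limma adjusted p = 0.0447). Its reads were 21, 30 and 61 in control, 14, 24 and 9 in DEX and 67, 88 and 69 at 4 weeks. Sfrp4 had no read in the 3 DEX pools and 1.39, 1.423 and 3.07 at 4 weeks (limma adjusted p = 0.0471), while its highest value, 5.23, was in the third pool at 1 week. In control Sfrp4 was at the floor too, with 2, 0 and 0 reads. Among 9 tetraspanins and partners of CD9, 12 aldolase and S100 genes and 8 intermediate filament genes, none passed the F test. In the aldolase and S100 group the smallest p was that of S100a8, a neutrophil protein at 1.33 or less in every library (limma F test adjusted p = 0.107).

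Genes of other cell types differed between the same groups. The summed level of the 9 markers was 165 to 237 normalised counts in control, 179 to 183 in DEX, 194 to 243 at 1 week and 292 to 337 at 4 weeks, most of it from Aldoc and Cd9. The sum of 10 endothelial genes was 11.01 to 84.3 in control, 7.12 to 14.1 in DEX, 34.7 to 211 at 1 week and 91.9 to 176 at 4 weeks, so that it too was above control in every 4 week pool. In this list Kdr and Emcn passed the F test (0.315% of all tested genes did). At 4 weeks all 10 genes lay above DEX in all pools (9.8% of all tested genes did), and 6 of them passed limma's adjusted threshold (0.873%). For 11 pericyte and fibroblast genes the sums were 101 to 163, 79.5 to 121, 93.3 to 234 and 193 to 302, with Col3a1 past the F test (0.315% of all). Macrophage genes summed to 30.7 to 45.2, 26.7 to 37.9, 51.0 to 90.2 and 43.4 to 98.7, and Tshb, the thyrotroph hormone gene, was 120 to 275 in control and 442 to 709 at 4 weeks. Sums of 3 somatotroph genes overlapped between control (79121 to 221563) and 4 weeks (150647 to 266215), as did those of the gonadotroph and thyrotroph lists. The sum of 3 lactotroph genes was 31662 to 79220 in control and 86699 to 120059 at 4 weeks, so every 4 week pool was above control. Of 6 genes of pituicytes and the posterior lobe, 3 had too few reads to be tested, and the list summed to 5.42 or less in every library. In lists for proliferation (Hmmr and Ccnb2, 2 of 8) and glucocorticoid targets (Fkbp5, 1 of 7) genes passed the F test, beside 0.315% of all tested genes. None passed in the lists for corticotrophs, melanotrophs, lactotrophs, gonadotrophs, Schwann cells, erythroid cells or dissociation stress. The sum of the 14 dissociation stress genes was nevertheless lower in every pool after withdrawal, at 16763 to 19946 at 1 week and 18363 to 18770 at 4 weeks, than in control at 23295 to 25418 and in DEX at 23109 to 32874. In the list of 6 corticotroph genes 4 had a negative and 2 a positive difference at 4 weeks from control, with a median of −0.84. Tbx19 (94.4 to 188 against 218 to 459 normalised counts) and Neurod1 (8.43 to 17.3 against 22.3 to 44.3) lay below control in all pools, as 6.42% of genes did. The sum of the 6 overlapped, at 35294 to 75533 in control and 48721 to 80895 at 4 weeks. The mean of Pomc per kilobase of exon was 46293 in control and 45009 at 4 weeks. The part of these cells and of dissociation in the values of Dkk3 and Aldoc was not tested.

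**Figure D5:**
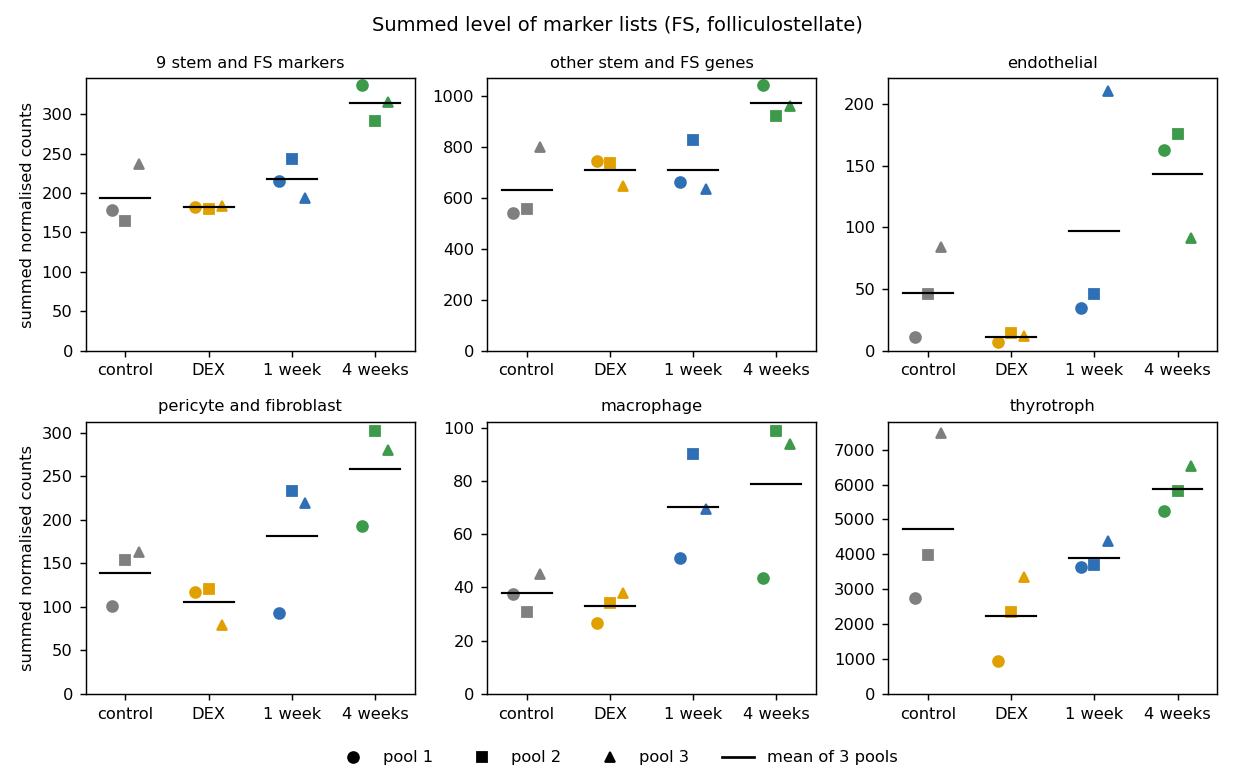
Summed normalised counts (y axis, from 0, a separate scale in each panel) of 6 marker lists in each library, by group (x axis) and pool number (symbol), with a line at the mean of 3 pools. At 4 weeks the sums of the 9 markers (292 to 337), the wider list of stem genes (920 to 1043), endothelial genes (91.9 to 176) and pericyte and fibroblast genes (193 to 302) lie above all control pools.

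Genes with the profile most like Sox2 over the 12 libraries, out of 15749 with a mean of at least 1 normalised count, were Brpf3 (Pearson's r = 0.96), Nkx6-2 (0.95), Otulin, Fbxl17 and Arhgef33 (0.93 each). For Sox9 they were E230013L22Rik (0.92), Prkg2 (0.90), Ppm1j (0.89), Kcnb2 (0.89) and P4ha3 (0.88). None of these is in the marker lists. For the mean profile of all 9 genes the leading genes were Zcchc24 (0.94), Igfbp7 (0.94), Garem2 (0.93), Itih5 (0.91) and Id4 (0.90). That mean includes S100b and Gfra2, at or near the floor, so the counting error of these genes enters the profile. These coefficients are the highest out of all those genes over 12 libraries and describe likeness only.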

How the data were processed

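RNA of sorted eGFP-positive anterior pituitary cells was below the detection limit of the fluorometer and was amplified with the SMART-V4 kit before Nextera XT libraries were made, a source of noise beyond counting error. Per the labels and the methods, the authors trimmed reads with Trim Galore 0.6.5, aligned them to GRCm38 (Ensembl release 98) with STAR 2.7.1a, counted read pairs of mapping quality 20 with featureCounts 2.0.0 in strand-specific mode, and scaled counts in edgeR. This kit is not known to mark strand, so reads of a gene and of an antisense partner may not be told apart. Deposited by them was a normalised signal, CPM on the effective library size, in which 100% of 271881 values above 0 were whole reads within 1e-06 of a read. All columns belong to listed samples.

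Genes above 0.1 in at least 3 libraries were tested with limma 3.58.1 (R 4.3.3) on log2(value + 0.1) in 1 model of all 12 libraries, with a moderated F test on the differences of the 3 other groups from control, a test of each pair of groups, and Benjamini-Hochberg adjustment over all 24736 genes at 0.05. Log2 differences are on this scale, which understates changes of low genes. Single genes were also compared by two-sided exact permutation tests. Alternatives were pseudocounts of 0.5 and 1, no filter and a filter at 1, median ratio scaling, quantile normalisation, array weights, robust moderation, the 2 groups compared alone, the pool number as a block, leaving out single libraries, and edgeR 4.0.16 (quasi-likelihood and likelihood ratio) and DESeq2 1.42.0 on recovered reads. Shares of genes given for DESeq2 are of those to which it gave an adjusted p, 17528 to 20405 depending on the comparison, and not of 24736. Leaving out control pool 3 and the third pool at 1 week together was chosen after seeing the data. The fit was tested on simulated data.

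The 9 genes and all gene lists were chosen with earlier results of these data known. Named are the 9 genes with every library, in each other list the genes past the F test or else up to 4 of the smallest p, and the 5 genes most like Sox2, Sox9 and the mean of the 9. Cd63, Aldoa, Nrtn, Kdr, Hspa1a, Tbx19 and Tshb, the genes called between the 4 week and DEX pools, and the genes of the wider list that lay above control in all pools were named after their values were seen. Coordinates and exon lengths are those of GENCODE M21 on GRCm38, and promoter windows those of RefSeq. According to the study, cages were assigned to the groups, mice of the same cage were pooled, and each pool was dissociated and sorted separately. The day of each sort is not stated. The pool is thus the unit of comparison, and p-values measure the spread between these pools.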

Additional observations from a re-analysis of the deposited data

How the results depend on the processing

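How many of the 9 genes passed depended on the tool. Across the 4 groups limma called 0 (3 at an unadjusted p under 0.05), array weights 3, the quasi-likelihood test of edgeR 1, its likelihood ratio test 1, and DESeq2 2. For 4 weeks against control limma called 0 (2 unadjusted), array weights 2, the likelihood ratio test 1 and DESeq2 2. For 1 week against DEX limma called 0 (1 unadjusted), and array weights and DESeq2 1 each. For 4 weeks against DEX limma called 0 (5 unadjusted), array weights 4, the likelihood ratio test 1 and DESeq2 3. Without control pool 3 and the third pool at 1 week these were 2 across the groups and 1 for 4 weeks against DEX. With each library left out in turn the calls ran from 0 to 1 across the groups, the 1 (Dkk3, adjusted p = 0.0344) without the third pool at 1 week, and from 0 to 1 for 4 weeks against DEX, the 1 (Dkk3) without the second (adjusted p = 0.0414) or the third (0.0314) pool at 1 week. DEX against control, 1 week against control and 4 weeks against 1 week gave 0 in every alternative run. The cause was not tested.

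Some directions turned. With array weights they were Sox2 under DEX (0.18) and at 1 week (0.071) against control, Hes1 under DEX (0.066), Cd9 at 4 against 1 week (−0.16) and Aldoc at 1 week against DEX (−0.085, and −0.014 by quantile normalisation). Without control pool 3 and the third pool at 1 week they were Sox2 (0.46) and Hes1 (0.48) under DEX, Cd9 at 4 against 1 week (−0.17) and Nes at 1 week against DEX (−0.075).

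With single libraries left out these differences crossed 0. Aldoc ranged from −0.15 to 0.088 for 1 week against DEX. Cd9 ranged from −6.1e-05 to 0.35 for 1 week against control and −0.17 to 0.16 for 4 weeks against 1 week. Hes1 ranged from −0.84 to 0.19 for 1 week against DEX, −1.29 to 0.080 for 1 week against control, −0.054 to 1.32 for 4 weeks against control and −0.89 to 0.48 for DEX against control. Nes ranged from −0.075 to 0.82 for 1 week against DEX and −0.23 to 0.51 for 4 weeks against control. Sox2 ranged from −1.32 to 0.56 for 1 week against DEX, −1.66 to 0.22 for 1 week against control and −0.85 to 0.46 for DEX against control. Sox9 ranged from −0.080 to 0.49 for 1 week against DEX and −0.12 to 0.22 for 4 weeks against control.

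The pool number as a block changed no call (0 of the 9 in each comparison). Same-numbered libraries correlated from −0.29 to 0.40, over 0.1 in 7 of 18 pairs only, and no label says what a number shares, so the numbers were not taken as pairs. That 8 of 12 libraries correlated best with one of their own number is a hint from the data and not from the design. Sox2, Hes1 and Nes rest on 3 to 155 reads a library, and S100b and Gfra2 on too few for any comparison.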
